A study of Mus musculus with 6 samples.

Results

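The MHC class I pathway was followed through 10 genes, namely B2m, H2-K1, H2-D1, Tap1, Tap2, Tapbp, Nlrc5, Psmb8, Psmb9 and Psmb10. They were chosen by name, and every probe set that the platform's annotation assigns to one of them alone was used, which gave 27 of 45037 probe sets and 10 of 18193 genes. The tumours came from 344SQ, a single mouse lung adenocarcinoma line that carries the p53 R172HdelG/+ allele in all samples and was grown under the skin of syngeneic mice. The strain, sex and age of the hosts, the time of growth and any pooling of tumours are not stated in the labels. Flow cytometry on CD133, the product of Prom1, split the cells into fractions of high and low CD133, each measured on 3 arrays, and the labels name no other treatment and no removal of host cells.

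MHC class I molecules show peptides from inside the cell to CD8 T cells and are also read by natural killer cells. The proteasome cuts proteins into peptides, the transporter TAP carries these into the endoplasmic reticulum, and tapasin helps to load them onto a heavy chain paired with beta-2 microglobulin. Interferon gamma induces most of these genes, among them the 3 catalytic subunits that turn the constitutive proteasome into the immunoproteasome. NLRC5 is the transactivator of the class I genes and acts through a promoter module of S, X and Y boxes. Leukocytes express this pathway strongly, and tumour cells can lower it.

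The promoters of the heavy chains H2-K1 and H2-D1 and of the light chain B2m are shown because a part of that module, the X2 and Y boxes, stands in them. The rest of the module was not searched. The stretch between Psmb9 and Tap1 is shown because these genes are read in opposite directions from it. The sequences are RefSeq's, build GRCm38.p6, written 5′ to 3′ along the strand named, and they end at the base before the annotated start of the gene. Capitals mark an NF-kB element (GGGNNTTCCC), an interferon element (GAANNGAAA, here on the opposite strand) and the X2 and Y boxes (TGACG and ATTGG, 20 bases apart). H2-K1 lies at chr17:34000348-34000597 on the minus strand, H2-D1 at chr17:35262844-35263093 on the plus strand, B2m at chr2:122147437-122147686 on the plus strand, and the Psmb9 to Tap1 stretch at chr17:34187331-34187555, written on the plus strand, that of Tap1. For H2-K1, for which RefSeq gives more than 1 start, the first listed was taken.
H2-K1: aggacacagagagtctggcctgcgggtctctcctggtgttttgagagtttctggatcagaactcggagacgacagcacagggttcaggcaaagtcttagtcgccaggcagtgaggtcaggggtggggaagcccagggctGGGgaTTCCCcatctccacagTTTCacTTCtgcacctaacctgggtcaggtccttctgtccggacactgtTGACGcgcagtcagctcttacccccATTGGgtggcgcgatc
H2-D1: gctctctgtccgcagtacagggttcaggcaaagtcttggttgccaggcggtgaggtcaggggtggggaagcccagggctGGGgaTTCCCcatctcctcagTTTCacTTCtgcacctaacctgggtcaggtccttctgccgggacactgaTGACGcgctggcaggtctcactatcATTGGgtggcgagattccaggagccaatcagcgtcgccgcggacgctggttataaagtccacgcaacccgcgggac
B2m: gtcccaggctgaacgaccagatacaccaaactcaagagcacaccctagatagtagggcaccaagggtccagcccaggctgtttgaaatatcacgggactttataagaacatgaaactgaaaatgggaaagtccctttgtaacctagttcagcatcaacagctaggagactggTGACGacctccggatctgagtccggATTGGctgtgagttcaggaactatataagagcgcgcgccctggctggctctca
Psmb9-Tap1: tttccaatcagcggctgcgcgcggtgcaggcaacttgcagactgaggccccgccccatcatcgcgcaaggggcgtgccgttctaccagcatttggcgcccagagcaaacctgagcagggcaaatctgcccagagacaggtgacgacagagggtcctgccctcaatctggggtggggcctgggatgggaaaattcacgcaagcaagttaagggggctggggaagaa

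Each motif was searched on both strands in the 250 bases before the start of 32851 annotated promoters. The X2 and Y boxes at that spacing, which was chosen after these sequences were seen, stood in 0.0913% of all promoters, and in 3 of the 8 class I pathway genes with a promoter in the table, namely H2-K1, H2-D1 and B2m. The NF-kB and interferon elements stood in 1.53% and 6.31% of all promoters, and among the 8 genes in H2-K1 and H2-D1. The motifs were not particular to these genes. Of 13 other class I heavy chain genes with a promoter, 6 had the interferon element and 3 the NF-kB element. The X2 and Y boxes stood in 1 of the 13, H2-M3. The H2-K1 and H2-D1 stretches could be aligned over 190 bases without gaps, of which 166 were identical. None of the 3 motifs was found in the 225 bases that Psmb9 and Tap1 share. These matches describe the letters only.

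Some facts of the arrays bear on all results. CD133 high replicate 1 stood apart from CD133 high replicates 2 and 3. The mean of the bacterial hybridisation controls lay between 9.80 and 10.14 in the CD133 low fraction, and CD133 high replicate 1 had 10.01, replicate 2 had 10.94 and replicate 3 had 10.70. The Gapdh control at the 3′ end was brighter than the mid-transcript one by 0.44 on CD133 high replicate 2 and 0.46 on replicate 3, against −0.13 to −0.07 on the other arrays. Prom1 was at 6.80, 6.63 and 6.40 on the CD133 high arrays and at 5.49, 5.92 and 6.06 on the CD133 low arrays, so the fractions did not overlap (difference 0.79, limma, adjusted p = 0.297). Both fractions held tumour and leukocyte transcripts. The keratin gene Krt8 was at 12.79 ± 0.17 in the CD133 high and 12.39 ± 0.18 in the CD133 low fraction, and Ptprc, which encodes the leukocyte antigen CD45 and was picked after its values were seen, at 12.99 ± 0.23 and 12.96 ± 0.22 (SD, n = 3 arrays each). Not all pan-leukocyte markers were that close: the difference was −2.13 for Spn and −1.51 for Cd48 (limma, adjusted p = 0.0843 and 0.276), and the median of that list was −0.82. Epithelial markers other than Krt8 went both ways, with Cldn7 at −0.73, Cldn4 at −0.42 and Dsp at 1.05 (limma, adjusted p = 0.295, 0.331 and 0.300). The median of the epithelial list was −0.13. All values are on the log2 scale, and differences are CD133 high minus CD133 low. In such bulk samples fewer cells of a type and less RNA per cell cannot be told apart.

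At their brightest probe sets, the peptide supply genes and the transactivator stood lower on every array of the CD133 high fraction. The probe sets of the chains of the molecule itself disagreed, and so did those of Tap1. At the brightest probe set of each gene, Psmb8, Psmb9, Psmb10, Tap1, Tap2, Tapbp and Nlrc5 had fractions that did not overlap, with differences from −0.94 to −1.61. Over all genes at the brightest probe set, 12.8% had fractions apart with CD133 high lower, and 10.8% with CD133 high higher. B2m, H2-K1 and H2-D1 differed by −0.0092, −0.29 and −0.05 at their brightest probe sets, with overlapping fractions, and the other probe sets of H2-K1 and H2-D1 by up to −1.40 and −2.83. These 3 brightest probe sets exceeded at least 99.2% of all probe sets, near the top of the scale, and whether values are compressed there was not tested. With all probe sets of a gene averaged, B2m differed by −0.14, H2-K1 by −0.77 and H2-D1 by −0.61. Of the supply genes with more than 1 probe set, Tap1 then differed by −0.07, Tapbp by −0.69 and Psmb8 by −1.48. The median over the 10 genes was −1.03, against 0.0013 over all genes. None of the 27 probe sets passed the test across the array (limma, Benjamini-Hochberg adjusted over all probe sets, smallest adjusted p = 0.110), where 0.167% of all probe sets were called lower and 0.0155% higher. At an unadjusted p under 0.05, 13 of the 27 were lower and 1 was higher, against 7.9% and 7.78% of all probe sets.

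**Figure D1:**
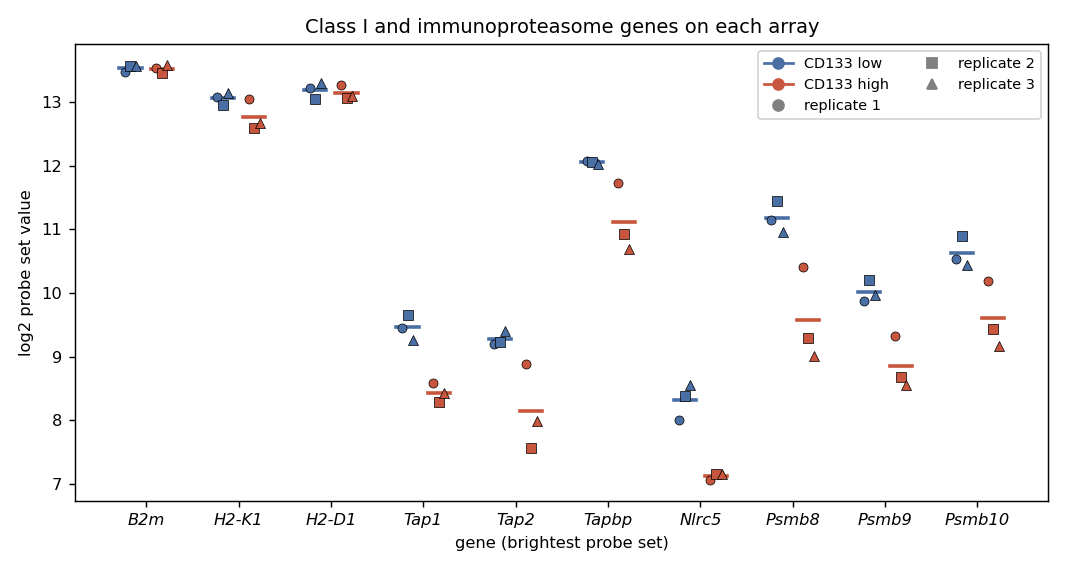
Log2 value on each of the 6 arrays (vertical axis) for the brightest probe set of each gene (horizontal axis), CD133 low in blue and CD133 high in red. Marker shapes are replicates and short lines are the means of 3 arrays. From Tap1 to Psmb10 all CD133 high points lie below all CD133 low points, and for B2m, H2-K1 and H2-D1 the points overlap.

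Nlrc5, the transactivator, had values of 8.001, 8.38 and 8.55 in the CD133 low fraction, against 7.06, 7.16 and 7.15 in the CD133 high fraction. All 3 CD133 high arrays lay close together and below the lowest CD133 low array, and CD133 high replicate 1 was no exception. The difference was −1.19 (SE 0.20, limma, adjusted p = 0.110), a 2.28-fold lower level, and lower differences were found in 3.71% of all probe sets. Nlrc5 has a single probe set here.

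Tap1, the chain of the peptide transporter whose gene shares its upstream stretch with Psmb9, had values of 9.45, 9.66 and 9.27 in the CD133 low fraction, against 8.59, 8.28 and 8.42 in the CD133 high fraction. Again all 3 CD133 high arrays were low and the fractions did not overlap (difference −1.03, SE 0.17, limma, adjusted p = 0.110). Tap2, the other chain of the transporter, was at 9.21, 9.23 and 9.40 on the CD133 low arrays and at 8.88, 7.56 and 7.99 on the CD133 high arrays. Here CD133 high replicate 1 was nearer to the CD133 low arrays than to replicates 2 and 3, although it stood below them all (difference −1.13, SE 0.33, limma, adjusted p = 0.297). The 3 further probe sets of Tap1, all dimmer, did not repeat the pattern of the brightest. They stood at means of 4.98 to 6.29 and differed by 0.76, 0.08 and −0.08. That with the difference of 0.76, 1448177_at, had fractions that did not overlap, in the opposite direction to the brightest, 1416016_at, although the annotation gives both the same source sequence.

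Tapbp encodes tapasin, which bridges the transporter and the empty class I molecule. Its brightest probe set was at 12.08, 12.06 and 12.02 on the CD133 low arrays, a range that was narrow, and at 11.72, 10.93 and 10.70 on the CD133 high arrays. The difference was −0.94 (SE 0.27, limma, adjusted p = 0.297). At its other probe set Tapbp differed by −0.44 (SE 0.21), and the fractions overlapped, with 8.99 on CD133 high replicate 3 and 8.95 on CD133 low replicate 3.

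Among the brightest probe sets the difference was largest for an immunoproteasome subunit, Psmb8. Psmb8, whose product replaces the chymotrypsin-like subunit, was at 11.15, 11.45 and 10.96 on the CD133 low arrays and at 10.42, 9.29 and 9.01 on the CD133 high arrays. The difference was −1.61 (SE 0.37, limma, adjusted p = 0.233), a 3.06-fold lower level, and the dimmer probe set differed by −1.35 (SE 0.45). Both Psmb8 probe sets had fractions that did not overlap, with CD133 high replicate 1 the highest of its fraction.

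Psmb9, which replaces the caspase-like subunit, was at 9.88, 10.20 and 9.97 on the CD133 low arrays and at 9.32, 8.67 and 8.56 on the CD133 high arrays (difference −1.17, SE 0.23, limma, adjusted p = 0.174). Psmb10, which replaces the trypsin-like subunit, was at 10.53, 10.90 and 10.44 against 10.19, 9.44 and 9.17 (difference −1.02, SE 0.29, limma, adjusted p = 0.293). In both genes the CD133 high arrays lay below the CD133 low arrays, and replicate 1 lay between the CD133 low arrays and replicates 2 and 3.

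The constitutive partners of these subunits also stood lower, by less. Psmb5, Psmb6 and Psmb7 differed by −0.79, −0.58 and −0.65, and none passed the test (limma, adjusted p = 0.297, 0.311 and 0.332). The difference of 2 log2 values within an array is free of the scaling between arrays, so each inducible subunit was set against the partner it replaces. Psmb8 minus Psmb5 was −0.17, 0.0027 and −0.18 in the CD133 low fraction, against −0.65, −1.10 and −1.05 in the CD133 high fraction. Psmb9 minus Psmb6 was −2.11, −1.86 and −1.73, against −2.29, −2.85 and −2.32. Psmb10 minus Psmb7 was −1.56, −1.37 and −1.54, against −1.93, −1.80 and −1.88. In each of the 3 pairs every CD133 high array lay below every CD133 low array, CD133 high replicate 1 included. The changes of these ratios were −0.82, −0.59 and −0.37 (exact permutation test, two-sided, p = 0.1 each and 0.1 after adjustment over the 3 pairs), and 0.1 is the smallest p that 3 against 3 arrays allow. The levels of 2 probe sets are not comparable, so only the change of a ratio between the fractions can be read.

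**Figure D2:**
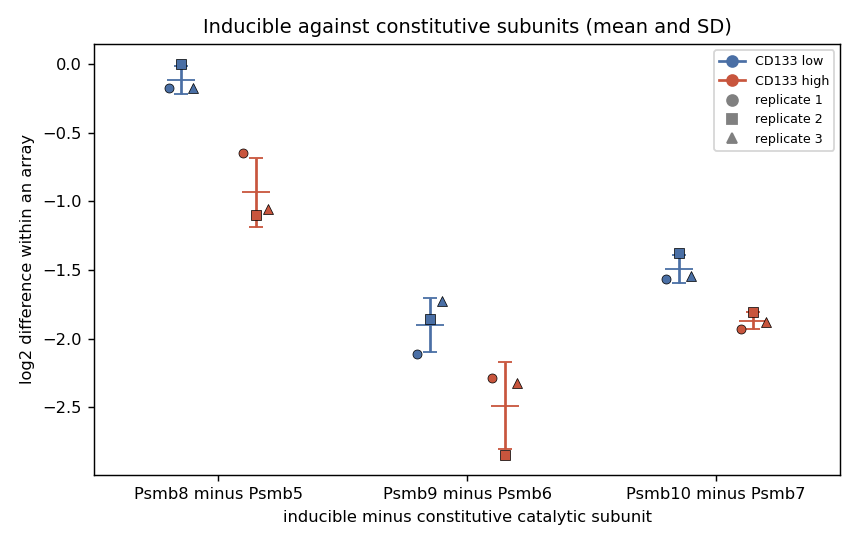
Log2 value of each inducible catalytic subunit minus that of the constitutive subunit it replaces, within each array (vertical axis), for 3 pairs (horizontal axis). Points are arrays, and bars are the mean and SD of 3 arrays per fraction. In each pair the CD133 high points lie below the CD133 low points, by −0.82, −0.59 and −0.37 on average.

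B2m, the light chain, stood at 13.48, 13.57 and 13.56 on the CD133 low arrays and at 13.53, 13.46 and 13.59 on the CD133 high arrays at its brightest probe set. The values overlapped fully. The sign of this small difference turned with the setting, and quantile normalization gave 0.06. At its other probe set B2m was at 13.35, 13.43 and 13.43 against 13.42, 12.87 and 13.09, a difference of −0.28 (SE 0.19) to which CD133 high replicate 1 did not contribute. Both probe sets are brighter than at least 99.6% of all probe sets, and the brightest value of any probe set on an array was 14.01 to 14.29, so little range was left above B2m.

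H2-K1, a classical heavy chain, is covered by 4 probe sets, all of the _x_at type, which can share sequence with other genes. The brightest was at 13.08, 12.97 and 13.15 on the CD133 low arrays and at 13.06, 12.59 and 12.68 on the CD133 high arrays, a difference of −0.29 (SE 0.18). It is the brightest over all 6 arrays, but 1425336_x_at was brighter on the CD133 low arrays, at a mean of 13.19 against 13.07. The other 3 had fractions that did not overlap. They differed by −0.82, −0.55 and −1.40, and the dimmest of them, 1450534_x_at, was at 9.63, 9.67 and 9.82 against 9.36, 7.44 and 8.12. None passed the test (limma, adjusted p = 0.297 for each of these 3 and 0.441 for the brightest). Without CD133 high replicate 1 all 4 were called lower, the brightest by −0.43 (limma, adjusted p = 0.0471). Adjusted for the hybridisation controls, the brightest differed by 0.02.

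H2-D1, the other classical heavy chain measured, is covered by 9 probe sets, and these disagreed. The 2 brightest were near 13 on all arrays and differed by −0.05 and −0.10. The sign of the brightest turned with quantile normalization, to 0.07. The third, 1451683_x_at, was at 12.10, 12.01 and 12.09 on the CD133 low arrays and at 12.03, 11.09 and 11.15 on the CD133 high arrays. The largest difference of all 27 probe sets, −2.83 (SE 1.02, limma, adjusted p = 0.300), belonged to 1450170_x_at, with 6.82, 6.85 and 6.78 against 6.56, 3.002 and 2.41. There CD133 high replicate 1 was close to the CD133 low arrays, and the other replicates lay below the 25th percentile of their arrays (5.16 and 5.002), so the size of that difference is not firm. At 1426324_at CD133 high replicate 1 was the highest of all arrays, with 10.59 against 9.50 to 10.14 in the CD133 low fraction, and replicates 2 and 3 were the lowest, with 8.73 and 9.11. The remaining 4 differed by −0.06 to −0.76, with overlapping fractions. Class I genes are closely related in sequence and vary between mouse strains, so the values of H2-K1 and H2-D1 are uncertain where a probe set also captures another class I gene.

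**Figure D3:**
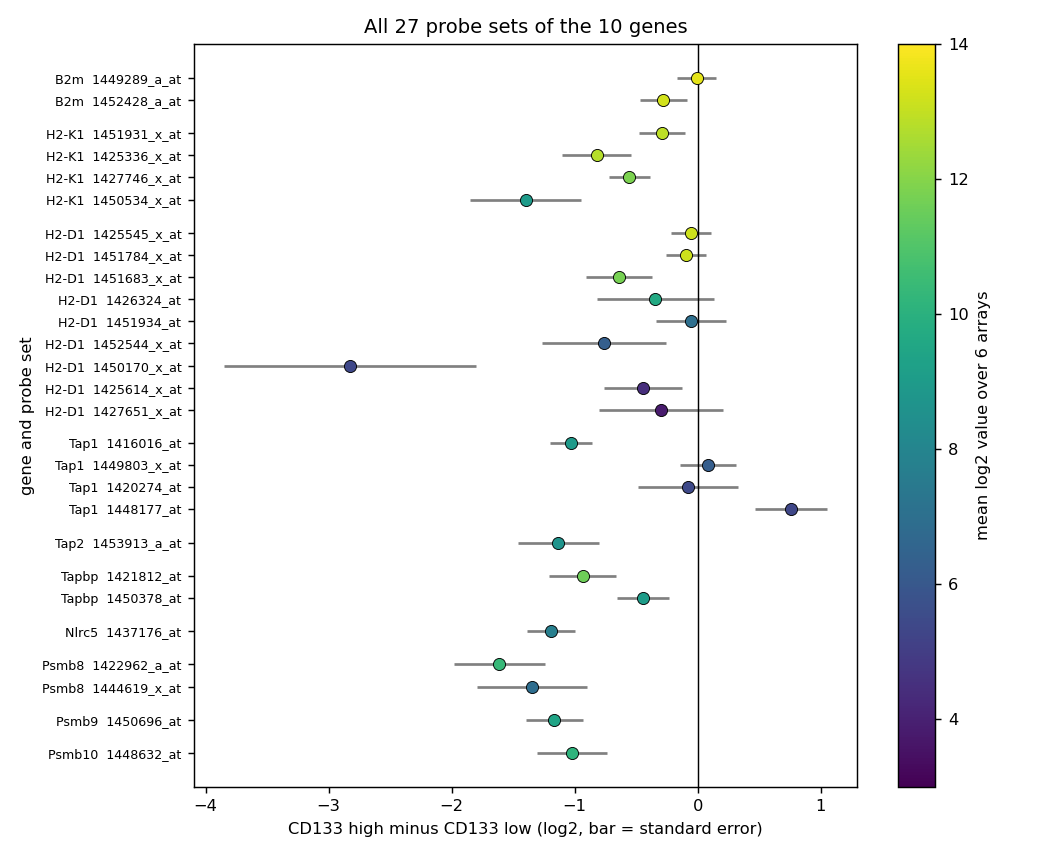
Difference between the fractions (horizontal axis, log2, bars are standard errors from limma) for each of the 27 probe sets (vertical axis), coloured by mean log2 value over 6 arrays. The brightest probe sets of B2m and H2-D1 lie at 0 within their error, the dimmer ones of H2-K1 and H2-D1 reach −1.40 and −2.83, and 1 probe set of Tap1 lies at 0.76.

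Over all 27 probe sets 25 had a negative difference. On the whole array 47.5% of probe sets had a lower difference than the −0.0092 of the brightest B2m probe set. Many of the 27 belong to H2-K1 and H2-D1, and probe sets of the same gene are not independent. In 12 of the 27 the CD133 high arrays all lay below the CD133 low arrays, against 10.5% of all probe sets. In 1, the dim probe set of Tap1, they all lay above, against 10.3%. Leaving out CD133 high replicate 1 changed the calls. Then 16 of the 27 probe sets were lower, against 11.8% of all probe sets, and none was higher, against 9.5% (limma, Benjamini-Hochberg, with 0 higher at an unadjusted p under 0.05). At the brightest probe sets 8 of the 10 genes were then called lower, against 14.6% of all genes, B2m and H2-D1 being the exceptions. Psmb8 was at −2.03 (adjusted p = 0.0033), Tapbp at −1.24 (adjusted p = 0.0035) and Nlrc5 at −1.16 (adjusted p = 0.0148). With any other single array left out, 0 of the 27 passed, and 8 to 9 were lower at an unadjusted p under 0.05, against 3.13% to 5.34% of all probe sets. With array weights, which let the arrays count unequally, 13 of the 27 passed as lower and 0 as higher, against 5.94% and 4.74% of all probe sets.

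The place of CD133 high replicate 1 differed between genes, as seen when the CD133 low mean is subtracted from each array. Nlrc5 was at −1.26, −1.16 and −1.16 on CD133 high replicates 1, 2 and 3, so replicate 1 was as low as the others. Tap1 was at −0.87, −1.18 and −1.04. Psmb8 was at −0.77, −1.90 and −2.17, Psmb9 at −0.70, −1.34 and −1.46, and Psmb10 at −0.43, −1.18 and −1.45. Tap2 was at −0.40, −1.71 and −1.29, and Tapbp at −0.33, −1.12 and −1.36. For Tap1 and these 5 genes replicate 1 was the least low of the 3 arrays. When replicate 1 alone was compared with the CD133 low fraction, none of the 27 probe sets passed (limma, 6 lower and 0 higher at an unadjusted p under 0.05, against 4.91% and 5.5% of all probe sets), with Nlrc5 at an adjusted p of 0.342 and Tap1 at 0.350. The hybridisation controls were brighter on CD133 high replicates 2 and 3 than on the other 4 arrays. They are thus largely confounded with the fraction, and a fit adjusted for these controls leans mostly on CD133 high replicate 1. Adjusted for them, the median over the 10 genes was −0.51 and 0 of the 27 passed (limma, 3 lower and 1 higher at an unadjusted p under 0.05, against 3.36% and 4.61% of all probe sets). In that fit Nlrc5 differed by −1.29 and Tap1 by −0.94, Psmb8 by −0.96, Psmb9 by −0.81 and Psmb10 by −0.61, and Tapbp by −0.40 and Tap2 by −0.37.

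**Figure D4:**
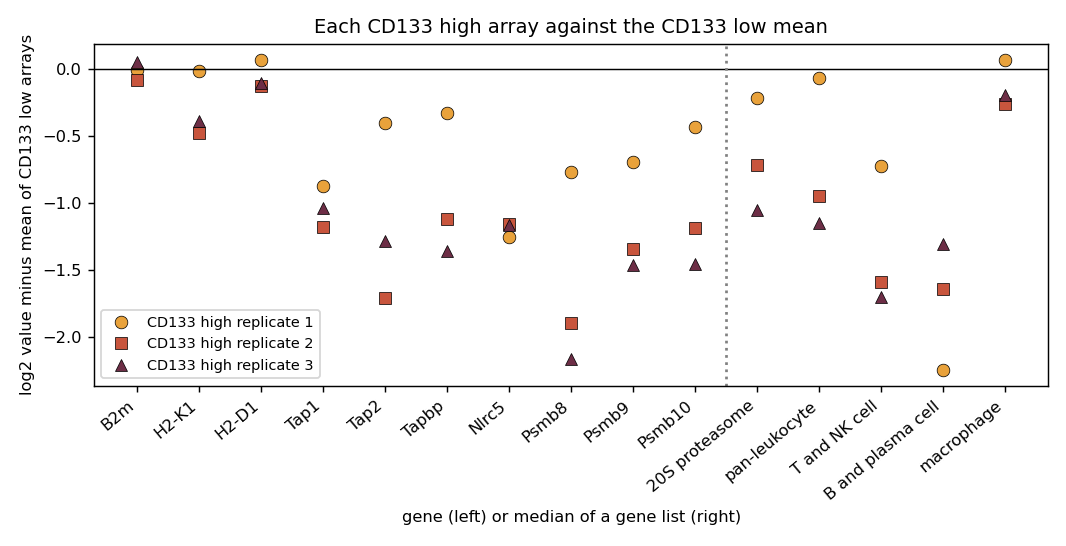
Log2 value of each CD133 high array minus the CD133 low mean (vertical axis), for the 10 genes on the left and for the median of 5 gene lists on the right. Colours and shapes are the replicates. For Nlrc5 the 3 arrays coincide near −1.2, whereas for Psmb8 replicate 1 is at −0.77 and the others at −1.90 and −2.17.

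Markers of several leukocyte types were also lower in the CD133 high fraction. By list median, T and natural killer cell, dendritic cell and pan-leukocyte markers were least low on replicate 1 and lowest on replicate 3. The 10 genes had the same order. B-cell and plasma cell markers had the reverse order, and macrophage and monocyte markers were lowest on replicate 2. For comparison, the median of the 10 genes was −0.41, −1.17 and −1.23 on CD133 high replicates 1, 2 and 3. The part of these markers in the result was not tested. Of 20 T and natural killer cell markers 6 fell, against 0.231% of all genes called lower and 0.022% called higher, and the list median was −0.73, −1.59 and −1.70 on CD133 high replicates 1, 2 and 3. The summed linear level of that list was 12667 to 15581 on the CD133 low arrays and 4307 to 6937 on the CD133 high arrays. Cd3e, a chain of the T-cell receptor complex, fell by 2.34 and Cd8b1, which encodes the CD8 beta chain, by 2.42 (limma, adjusted p = 0.0230 and 0.0186). Of the 20, 15 were lower and 0 higher at an unadjusted p under 0.05 (limma, against 9.94% and 8.3% of all genes). Not all followed. Cd8a, the CD8 alpha chain, differed by 0.31, Cd4, which was dim, by 0.44 and Cd247 by −0.25, with overlapping fractions. These 3 were picked after their values were seen. In the B-cell and plasma cell list, 4 of 13 genes fell, with list medians of −2.25, −1.64 and −1.31 and summed levels of 30996 to 36028 against 11989 to 20532. Pan-leukocyte markers had 0 of 17 called (limma, 8 lower and 0 higher at an unadjusted p under 0.05, against 9.94% and 8.3% of all genes) and list medians of −0.06, −0.95 and −1.15, with summed levels of 76670 to 79603 against 45369 to 80219. Macrophage and monocyte markers had 0 of 16 called (limma, 2 lower and 2 higher at an unadjusted p under 0.05, against 9.94% and 8.3% of all genes). Their list medians were 0.07, −0.26 and −0.19, with summed levels of 82690 to 88708 against 77492 to 90028. Dendritic cell markers had 0 of 11 called (limma, 4 lower and 0 higher at an unadjusted p under 0.05, against the same shares of all genes). Their list medians were −0.27, −0.89 and −0.91, with summed levels of 15021 to 16138 against 8859 to 13038. No marker of these lists was listed at 0 on any array.

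Markers of the remaining cell types were less one-sided. Neutrophil markers had medians of 0.69, −0.66 and −0.92 in CD133 high replicates 1, 2 and 3, endothelial markers of 0.23, −0.11 and −0.18, fibroblast markers of −0.0042, 0.15 and 0.34, and epithelial markers of −0.00036, 0.05 and −0.35. None of the genes of these 4 lists passed the test (limma, with 2 lower and 1 higher at an unadjusted p under 0.05, against 9.94% and 8.3% of all genes). Their summed levels in the CD133 low and CD133 high fractions were 33160 to 40567 and 16925 to 54270 for neutrophil, 3030 to 3725 and 3112 to 3973 for endothelial, 67641 to 72687 and 67041 to 91169 for fibroblast, and 23190 to 26166 and 22499 to 28583 for epithelial markers. The epithelial gene Esrp1 was listed at 0 on at least 1 array.

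The upstream signal of the pathway was examined through a list of interferon gamma signalling genes. Ifng, the cytokine itself, made by T and natural killer cells, was at 7.49, 7.52 and 7.68 on the CD133 low arrays and at 6.30, 4.79 and 4.76 on the CD133 high arrays. The fractions did not overlap (difference −2.28, SE 0.44, limma, adjusted p = 0.159). None of the 12 genes measured passed, 2 were lower and 0 higher at an unadjusted p under 0.05, against 9.94% and 8.3% of all genes, and the list median was −0.35. Irf8 differed by −0.63, Ifngr1, a receptor chain, by −0.62, and Socs1, a feedback inhibitor, by −0.40. Among 23 interferon-induced genes 0 passed, 6 were lower and 1 was higher at an unadjusted p under 0.05 (limma, against the same 9.94% and 8.3% of all genes), and the median was −0.18. Igtp, an interferon-inducible GTPase, was at 9.82, 10.07 and 9.96 against 9.11, 9.32 and 9.05, low on all 3 CD133 high arrays. Xaf1, Bst2 and Gbp6 differed by −0.62, −0.94 and −0.85. Not all followed, and the 1 higher gene, Ifit2, differed by 0.63. The CD133 high arrays all lay below the CD133 low arrays in 8 of the 23, against 12.8% of all genes. They all lay above in 1, Mx1, at 0.76, against 10.8%.

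Partners in peptide loading and trimming gave 0 of 15 called (limma, 6 lower and 1 higher at an unadjusted p under 0.05, against 9.94% and 8.3% of all genes), with a median of −0.07. Tapbpl, which encodes the tapasin relative TAPBPR, a peptide editor, was at 8.21, 8.41 and 8.15 on the CD133 low arrays and at 7.49, 7.27 and 7.27 on the CD133 high arrays. Its CD133 high arrays were all low, including replicate 1 (difference −0.91, SE 0.17, limma, adjusted p = 0.144). Erap1, the aminopeptidase that trims peptides in the endoplasmic reticulum, differed by −0.97 (SE 0.31), and Pdia3, a member of the loading complex, by −0.74 (SE 0.25), both with fractions that did not overlap.

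Of 8 genes of the PA28 activator and of proteasome assembly 0 passed (limma, 4 lower and 0 higher at an unadjusted p under 0.05, against 9.94% and 8.3% of all genes). Psme1, an interferon-induced PA28 subunit, was at 11.85, 12.05 and 11.55 against 11.20, 10.55 and 10.17, with CD133 high replicate 1 again the highest of its fraction (difference −1.18, SE 0.29). The assembly chaperones Psmg3 and Psmg1 differed by −1.16 and −0.44 and Pomp by −0.95. The 14 constitutive 20S subunits had a median of −0.58, with 0 called and 9 lower at an unadjusted p under 0.05 (limma, 0 higher, against the same shares), and 10 of the 14 had CD133 high arrays all below the CD133 low arrays, against 12.8% of all genes. Psmb3, Psmb1 and Psmb2 differed by −0.93, −1.02 and −0.54.

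Other class I heavy chains were divided. Of 9 measured genes 0 passed (limma, 3 lower and 1 higher at an unadjusted p under 0.05, against 9.94% and 8.3% of all genes), with a median of −0.36. H2-Q5 was at 9.18, 8.44 and 8.51 on the CD133 low arrays and at 8.17, 7.31 and 6.61 on the CD133 high arrays, and H2-Bl differed by −0.84. H2-Q2 was dim, at 5.51 at most. H2-Q10 stood at 9.92, 9.24 and 9.43 against 9.59, 11.23 and 11.14, so that CD133 high replicates 2 and 3 were high and replicate 1 was not. H2-M3, which presents formylated bacterial peptides and was picked after its values were seen, followed H2-Q10, with 9.30, 9.35 and 9.32 against 9.15, 11.50 and 11.65. The 7 class I-like molecules had a median of −0.04 and 0 called (limma, 0 in either direction at an unadjusted p under 0.05, against the same shares of all genes). Fcgrt, the neonatal Fc receptor, was at 0.17, Hfe at −0.30 and Cd1d1 at −0.22.

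In a list of 11 measured genes drawn up around class I promoter factors, which also held Nlrx1, 0 passed (limma, 1 lower and 2 higher at an unadjusted p under 0.05, against 9.94% and 8.3% of all genes). Ciita, the class II counterpart of NLRC5, differed by −0.91 (SE 0.28), Nfyc, a subunit of the Y box factor NF-Y, by 1.13 (SE 0.42), and Creb1, which binds the X2 box, by 0.75 (SE 0.29). Of 11 class II genes 1 fell, H2-Ob, by 1.96 (limma, adjusted p = 0.0186), against 0.231% of all genes called lower, and the median of the list was −0.08. At an unadjusted p under 0.05, 4 of the 11 were lower and 0 higher (limma, against 9.94% and 8.3% of all genes). H2-Oa differed by −2.37 (limma, adjusted p = 0.112), H2-DMa by −1.29 and H2-DMb2 by −0.99. The CD133 high arrays all lay below the CD133 low arrays in 4 genes, against 12.8% of all genes. They all lay above in 2, against 10.8%, namely Cd74 at 0.29 and H2-Ab1 at 0.07.

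**Figure D5:**
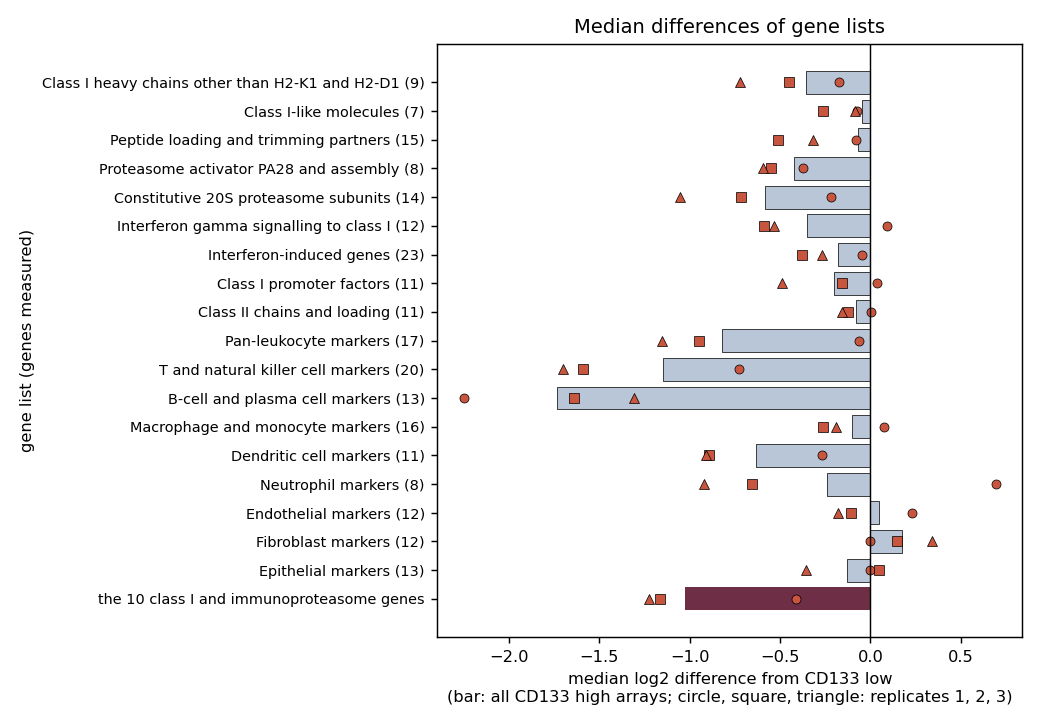
Median log2 difference of CD133 high from CD133 low (horizontal axis) for each gene list and for the 10 class I and immunoproteasome genes (vertical axis, with the number of genes measured). Bars are medians over all CD133 high arrays, and circles, squares and triangles are the medians on CD133 high replicates 1, 2 and 3 against the CD133 low mean. The 10 genes are at −1.03, between the pan-leukocyte list at −0.82 and the T and natural killer cell list at −1.15.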

How the data were processed

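RNA of 3 CD133 high and 3 CD133 low sorted samples was measured on Affymetrix arrays, prepared by the maker's procedure per the labels' protocols. The range and form of the deposited values show that they are on a log2 scale. No source used here gives the authors' summary and normalization of the probes. Array medians were 6.60 to 6.77, and 3 arrays per fraction limit the precision. Replicates were numbered in accession order, and nothing says that they are separate animals or sorts, so a p-value reflects the spread of these arrays alone, which may be technical.

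Control probe sets (64) were left out. The platform annotation gives 34945 of the 45037 remaining probe sets 1 gene, 932 several and 9160 none. Genes were represented by the brightest probe set. Each probe set was fitted on all arrays with limma 3.58.1 (R 4.3.3, with the data.table package in version 1.17.8), using a trended variance and two-sided p-values under Benjamini-Hochberg adjustment over 45037 probe sets and a threshold of 0.05. Within-array ratios were compared by exact permutation. Every column of values was used. Lists are described by counts and medians. Named are all 10 genes, Prom1, the 3 constitutive partners and, per list, up to 4 genes with the smallest p, unless said otherwise, and the 5 genes nearest in profile. The genes, lists and alternatives were chosen with earlier results of these data known. In data simulated for this comparison, recovery was 0% at a log2 change of 1, 31.2% at 2 and 50.9% at 3, and 2 of the unchanged among 45037 probe sets were called. Alternatives were quantile normalization, equal 75th percentiles, leaving out the dimmer 50% of probe sets or those of shared sequence, a floor of 5, other variance models, array weights, the hybridisation controls as a covariate, a threshold of 0.1, averaging all probe sets per gene, and leaving out each array. Setting CD133 high replicate 1 alone against the CD133 low arrays was added after seeing the data.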

Additional observations from a re-analysis of the deposited data

How the results depend on the processing

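No paired analysis was possible because the labels number no replicates. Each of Tap1, Tap2, Tapbp, Nlrc5, Psmb8, Psmb9 and Psmb10 stayed lower in the CD133 high fraction under every alternative run, although the mean over all probe sets of Tap1 gave −0.07. The same averaging moved B2m to −0.14, H2-K1 to −0.77 and H2-D1 to −0.61. The median over the 10 genes was −0.51 after adjustment for the hybridisation controls and −0.41 with CD133 high replicate 1 alone, and −1.20 to −0.89 with 1 array left out. Of the members' probe sets 13 were called lower with array weights, which give the arrays unequal influence, and 0 to 16 with 1 array left out, the 16 without CD133 high replicate 1. At the mean of its probe sets, tested over fewer features, Nlrc5 had an adjusted p of 0.0498 (limma, range over all alternatives 0.0148 to 0.559).

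Over the whole array the counts of probe sets called higher and lower were 13 and 144 with equal 75th percentiles, 11 and 164 with the dimmer 50% left out, 1 and 6 without a variance trend, 13 and 172 with a robust trend, 2133 and 2675 with array weights, and 25 and 170 at a threshold of 0.1. With values below 5 set to 5, 31 were lower. With 1 array left out they were 0 to 4277 and 0 to 5326, and with CD133 high replicate 1 alone 0 and 0 (limma, 2477 higher and 2211 lower at an unadjusted p under 0.05). The ratio of Psmb8 to Psmb5 changed by −0.53 with CD133 high replicate 1 alone, and by −0.96 to −0.73 with 1 array left out.

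The sign of B2m turned with quantile normalization (0.0596), array weights (0.0104) and the control covariate (0.0031), and its difference was −0.0414 to 0.0264 with 1 array left out, positive without CD133 low replicate 2 (0.0067), CD133 low replicate 3 (0.0046) or CD133 high replicate 2 (0.0264). H2-D1 turned to 0.0705 with quantile normalization, 0.12 with the covariate and 0.0688 with CD133 high replicate 1 alone, and H2-K1 to 0.0230 with the covariate. The cause was not tested. With probe sets of shared sequence left out, H2-K1 had none left, so it gave no value there.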

Other observations

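The annotation assigns 3 further probe sets to H2-K1 or H2-D1 together with other class I genes. That for H2-K1 and H2-D1 was at 11.42, 11.25 and 11.42 on the CD133 low arrays and at 11.02, 9.71 and 9.91 on the CD133 high arrays, a difference of −1.15 (SE 0.34). That for H2-Q5 and H2-K1 was at 6.33, 6.12 and 6.63 against 5.72, 5.13 and 5.10. In both the fractions did not overlap. That for Gm38417, H2-Q2 and H2-D1 was at 7.13, 6.87 and 6.82 against 8.37, 4.69 and 5.38, so CD133 high replicate 1 was the highest of all arrays and replicates 2 and 3 were the lowest.

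The genes outside the lists whose profile over the 6 arrays lay nearest to the median profile of the 10 genes were AI662270, Slc25a45, Cmtm7, Ap1g2 and Utp25, with root mean square distances of 0.025 to 0.069 on the log2 scale. AI662270 was at 11.46, 11.53 and 11.50 on the CD133 low arrays and at 11.14, 10.33 and 10.26 on the CD133 high arrays. Since the profile itself chose these genes, their direction and the order of their arrays are a description, and no test is given.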
